A study of Rattus norvegicus with 12 samples.

Results

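The genes described here are 9 components of the antiviral interferon system: the nucleic acid sensors Ifih1, Ddx58, Dhx58 and Tlr3, and the transcription factors Irf1, Irf3, Irf7, Irf9 and Stat2. They were chosen by name, each as the row of the count table that carries its symbol, out of 32883 genes in the table. All 9 were among the 14063 genes with enough reads to be tested. Poly(A) RNA came from heart muscle cells in primary culture, ventricular cardiomyocytes of newborn rats, 2 days after an adenovirus was added. Cells of the control group had a virus carrying LacZ, a bacterial gene used as control cargo, and the other groups had a virus carrying human KAT6A, a histone acetyltransferase. KAT6A was given as wild type (WT), as K815R, described in the labels as resistant to acetylation at that lysine, or as K815Q, described as mimicking it. Each of the 4 groups held 3 libraries, and all 12 libraries came from cells that carried an adenovirus. No group without virus, and no virus dose, is among the labels used here, and nothing in them says whether the 3 libraries of a group were separate cultures, so p-values measure the spread between these libraries, which may be technical.

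In cells that meet foreign RNA, the receptors RIG-I (encoded by Ddx58) and MDA5 (encoded by Ifih1) bind it in the cytoplasm and Tlr3 binds it in endosomes. LGP2, the product of Dhx58, belongs to the same helicase family and tunes the other helicases. The sensors signal through adaptors and kinases to Irf3 and Irf7, which switch on interferon genes. Secreted interferon then acts through its receptor on a complex that includes Stat2 and Irf9, which binds a motif called ISRE in interferon-stimulated genes. Many sensors and factors are themselves interferon-stimulated genes, which closes a loop, whereas Irf3 is known as a factor that is made without interferon and activated by phosphorylation.

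Promoter sequences of RefSeq (build GRCr8, which is not the build of the counts) were matched by symbol for 7 of the 9 genes, not for Ddx58 and Dhx58. The 250 bases before each start were searched on both strands for the ISRE core, GAAA repeated after any 2 bases, and for the core of the GAS motif, TTCNNNGAA, which STAT dimers bind. An ISRE core lay in 2 of the 7 promoters (28.6%), those of Irf7 and Ifih1, against 902 of all 27455 promoters (3.29%). A GAS core lay in 2 of the 7, those of Irf1 and Irf9, against 2066 of all promoters (7.53%). Among 19 promoters of interferon-stimulated effector genes, 13 (68.4%) held the ISRE core and 4 (21.1%) the GAS core. The windows of 100 bases below hold each match, in capitals, and are given 5′ to 3′ on the gene's strand. Irf3, with neither core in its 250 bases, is shown for contrast, and Stat2 and Tlr3 also had neither. A match describes letters only and is not a binding site, and a missing match says nothing of the factor.
Irf7, chr1:205800024-205800123, minus strand, ISRE core read on the other strand: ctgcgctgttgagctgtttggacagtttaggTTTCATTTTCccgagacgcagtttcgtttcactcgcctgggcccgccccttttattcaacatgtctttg
Ifih1, chr3:67683969-67684068, minus strand, ISRE core: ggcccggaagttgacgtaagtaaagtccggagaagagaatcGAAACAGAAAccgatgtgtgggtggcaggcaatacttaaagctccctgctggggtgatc
Irf1, chr10:38417783-38417882, plus strand, GAS core: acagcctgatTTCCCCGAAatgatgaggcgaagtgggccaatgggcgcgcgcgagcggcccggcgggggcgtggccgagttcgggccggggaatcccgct
Irf9, chr15:33065727-33065826, plus strand, GAS core: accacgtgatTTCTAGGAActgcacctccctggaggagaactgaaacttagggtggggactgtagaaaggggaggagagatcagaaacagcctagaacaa
Irf3, chr1:104616508-104616607, plus strand, neither core: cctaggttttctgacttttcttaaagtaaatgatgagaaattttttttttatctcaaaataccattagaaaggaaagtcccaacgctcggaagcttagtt
Counted to its last base, the ISRE core lay 60 bases before the annotated start in Irf7 and 50 bases before it in Ifih1. The GAS cores lay further out, 134 bases before the start in Irf1 and 91 in Irf9.

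Gene counts per library lay between 19102048 and 25451686, and a count of 3 corresponds to 0.118 to 0.156 CPM, the unit used below for levels, in which TMM brings each library to the same size. The labels were checked on Kat6a. The virus carries the human gene and the counted row is the rat gene, so whether reads of the delivered KAT6A are counted in it was not tested. Kat6a averaged 48.1 ± 4.75 CPM in the LacZ libraries, against 93.0 ± 12.3 with WT, 108 ± 11.7 with K815R and 46.3 ± 3.35 in those labelled K815Q (SD, n = 3). The last value was not above LacZ (log2 fold change -0.05, adjusted p 0.815, edgeR quasi-likelihood with Benjamini-Hochberg), so these are named as K815Q-labelled libraries throughout, and each direction given for them rests on that label. Prkaa2, a catalytic subunit of AMPK, rose in WT (log2 fold change 3.09) and in those labelled K815Q (4.26), and its 0.52 in K815R was not called. Cardiomyocyte markers (11 of 12 in the table, none at 0) summed to between 57000 and 66100 CPM over the 12 libraries.

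In WT, 8 of the 9 genes were lower than in LacZ and the other, Irf3, was higher. K815R and the K815Q-labelled libraries each had 6 lower genes, Ifih1, Ddx58, Dhx58, Irf7, Irf9 and Stat2 in both, and no higher one. A gene counts here as lower or higher at an adjusted p under 0.05 (edgeR quasi-likelihood, Benjamini-Hochberg) over all tested genes. Over all tested genes, 3.39% were called lower and 1.95% higher in WT, 1.74% lower in K815R and 4.98% lower in the K815Q-labelled libraries. The 3 comparisons use the same LacZ libraries, so their counts are not independent of each other. Asked whether a gene differed anywhere among the 4 groups, 7 of the 9 passed by the same test, against 8.13% of all genes. The exceptions were Tlr3 (adjusted p 0.0606) and Irf3 (adjusted p 0.0821). Every LacZ library lay above every one of the 9 libraries with a KAT6A virus in 7 of the 9 genes, all but Irf1 and Irf3, which was so for 3.53% of all genes. In bulk RNA, fewer cells making a transcript and less of it per cell cannot be told apart.

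**Figure D1:**
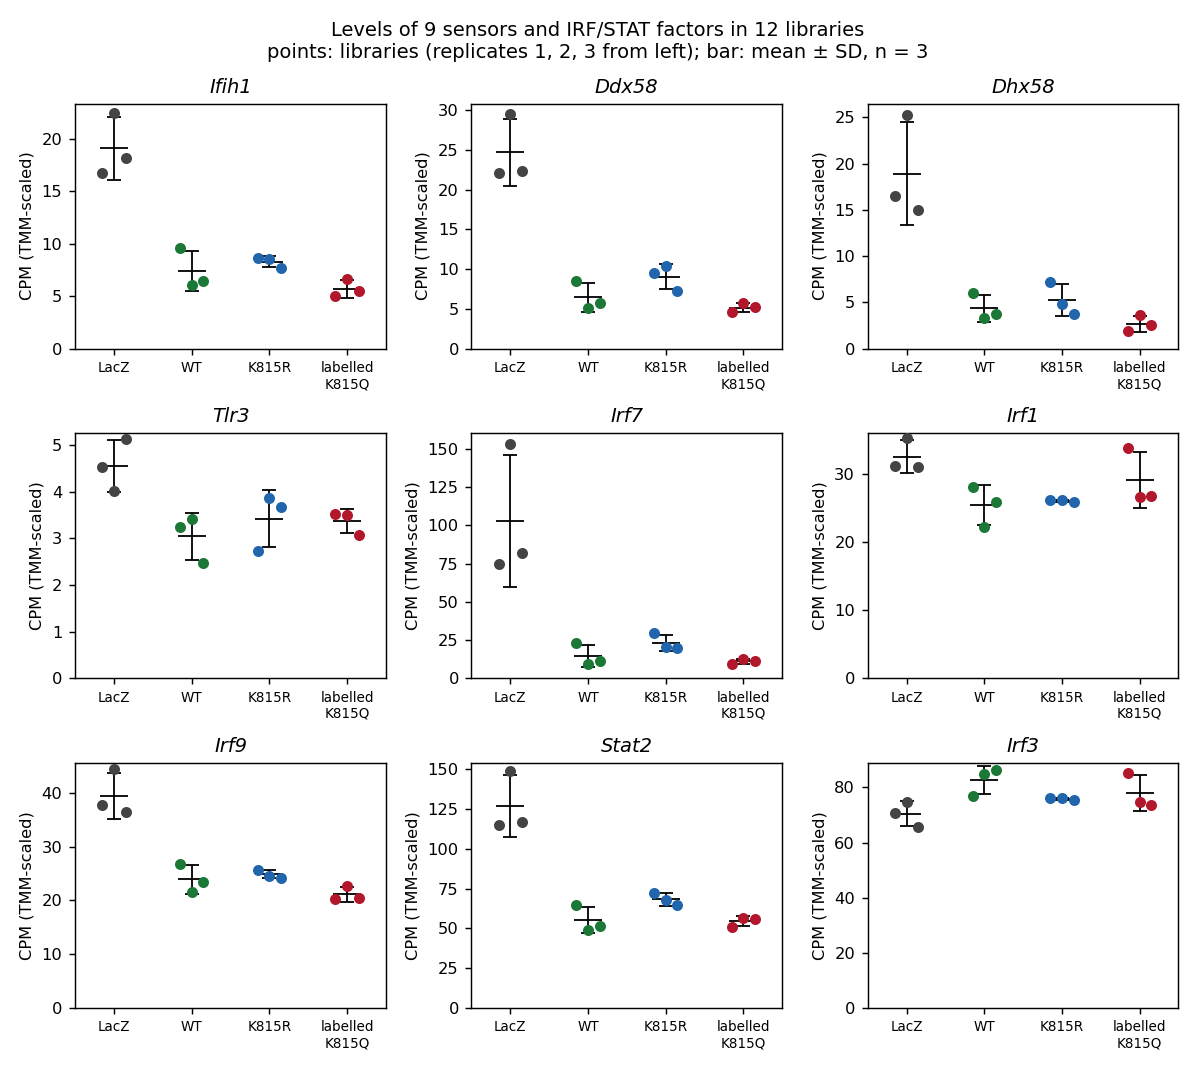
Level of each of the 9 genes in CPM (TMM-scaled, linear axis from 0) in the 12 libraries, with points for replicates 1, 2 and 3 from left to right and bars for the mean ± SD (n = 3). The LacZ points stand above all 9 others in 7 panels, while Irf1 overlaps through 1 library labelled K815Q and Irf3 runs from 65.8 to 86.4 over all 12 libraries.

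Of the sensors, Dhx58 (ENSRNOG00000018247, LGP2) had the largest fold change, though its difference in change from Ddx58 did not pass a test. Its levels were 16.5, 25.3 and 15.0 CPM in the 3 LacZ libraries and 6.03, 3.26 and 3.71 in WT. K815R libraries had 7.16, 4.85 and 3.72 CPM, and those labelled K815Q had 1.87, 3.61 and 2.55. The lowest LacZ library was well above the highest library with a KAT6A virus. The log2 fold change against LacZ was -2.12 (SE 0.328) in WT, -1.86 (SE 0.314) in K815R and -2.81 (SE 0.358) in the K815Q-labelled libraries, with adjusted p of 0.00712, 0.0199 and 0.00257 (edgeR quasi-likelihood, Benjamini-Hochberg). The level left was therefore 22.9%, 27.5% and 14.2% of that in LacZ. The K815R call was lost without K815R replicate 2 (adjusted p 0.0724 by the same test) and without K815R replicate 3 (adjusted p 0.0747).

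Ddx58 (ENSRNOG00000006384), which encodes RIG-I, a sensor of RNA with a triphosphate end, stood at 22.1, 29.6 and 22.4 CPM in LacZ and at 8.57, 5.06 and 5.75 in WT. It stood at 9.48, 10.4 and 7.27 CPM in K815R and at 4.57, 5.69 and 5.26 in the K815Q-labelled libraries. The highest library with a KAT6A virus, at 10.4 CPM, was well under the lowest LacZ library. The log2 fold changes were -1.93 (SE 0.188), -1.44 (SE 0.176) and -2.25 (SE 0.195) in WT, K815R and the K815Q-labelled libraries (adjusted p 0.000115, 0.0011 and 4.83e-05, edgeR quasi-likelihood with Benjamini-Hochberg). These leave 26.2%, 36.8% and 21.0% of the LacZ level. Ddx58 and Tlr3 overlap long non-coding RNAs in the RefSeq gene table, and the strand setting of the counting is not given in the sources used here, so their counts may hold reads of those transcripts.

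Ifih1 (ENSRNOG00000006227), which encodes MDA5, a sensor of long double-stranded RNA, has a promoter window above with an ISRE core. It stood at 16.8, 22.5 and 18.2 CPM in LacZ and at 9.58, 6.10 and 6.46 in WT. K815R libraries were close together at 8.65, 8.59 and 7.67 CPM, and those labelled K815Q had 4.99, 6.65 and 5.52. The groups with a KAT6A virus stayed below LacZ with no overlap, and WT replicate 1 was the highest of their 9 libraries. The log2 fold changes were -1.37 (SE 0.149), -1.2 (SE 0.145) and -1.74 (SE 0.156), with adjusted p of 5.76e-05, 0.000257 and 6.82e-06 (edgeR quasi-likelihood, Benjamini-Hochberg). The level was 38.6%, 43.5% and 30.0% of LacZ in WT, K815R and the K815Q-labelled libraries.

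Tlr3 (ENSRNOG00000021726), the endosomal receptor for double-stranded RNA, had few reads, between 52 and 125 counts per library. Its levels were 4.52, 4.01 and 5.12 CPM in LacZ, 3.25, 3.41 and 2.47 with WT, 2.73, 3.86 and 3.68 with K815R, and 3.53, 3.5 and 3.07 in the K815Q-labelled libraries. The lowest LacZ library stood just above the highest K815R library. WT was lower by the test (log2 fold change -0.59, SE 0.157, adjusted p 0.0276, edgeR quasi-likelihood with Benjamini-Hochberg), but this call held in only 2 of the 6 leave-one-out fits, each of which drops a library. It was lost without LacZ replicate 1 or 3 (adjusted p 0.0621 and 0.134 by the same test) and without WT replicate 1 or 3 (adjusted p 0.0536 and 0.153). In K815R the log2 fold change was -0.40 (95% interval -0.71 to -0.09) and in the K815Q-labelled libraries -0.44 (-0.76 to -0.11), with adjusted p of 0.201 and 0.0842 by the same test, so neither was called.

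Among the factors, Irf7 (ENSRNOG00000017414) differed most. It is the interferon regulatory factor that amplifies interferon production once interferon has acted. LacZ libraries had 75.0, 153 and 81.9 CPM, and WT libraries had 22.7, 9.30 and 11.1. K815R libraries had 29.3, 20.1 and 19.9 CPM, and those labelled K815Q had 9.56, 12.5 and 11.0. LacZ replicate 2 stood far above the other LacZ libraries, and the lowest LacZ library still exceeded every library with a KAT6A virus. The log2 fold changes were -2.84 (SE 0.397), -2.17 (SE 0.373) and -3.23 (SE 0.413), with adjusted p of 0.00498, 0.0238 and 0.00313 (edgeR quasi-likelihood, Benjamini-Hochberg). Without LacZ replicate 2 they were -2.45, -1.77 and -2.83 (adjusted p 0.011, 0.0541 and 0.00649 by the same test), so the K815R call was lost. It was lost as well without K815R replicate 1, 2 or 3 (adjusted p 0.0607, 0.079 and 0.101), while no left-out library ended the call in the K815Q-labelled libraries (6 fits). With only the LacZ and WT libraries fitted, the WT call was lost (adjusted p 0.0718).

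Stat2 (ENSRNOG00000031081) and Irf9 (ENSRNOG00000019478) encode subunits of the complex that carries the signal of type I interferon to the ISRE. Stat2 stood at 115, 149 and 117 CPM in LacZ, 64.6, 49.1 and 51.7 with WT, 72.3, 67.7 and 64.6 with K815R, and 50.8, 56.4 and 56.1 in the K815Q-labelled libraries. Irf9 stood at 37.7, 44.4 and 36.5 CPM in LacZ, 26.7, 21.6 and 23.4 with WT, 25.7, 24.6 and 24.2 with K815R, and 20.2, 22.6 and 20.4 in the K815Q-labelled libraries. For both genes every LacZ library was above every other library. Stat2 fell by 1.2 (SE 0.12), 0.89 (SE 0.117) and 1.22 (SE 0.12) on the log2 scale in WT, K815R and the K815Q-labelled libraries, with adjusted p of 0.000257, 0.00282 and 0.000209 (edgeR quasi-likelihood, Benjamini-Hochberg). Irf9 fell by 0.72 (SE 0.0818), 0.67 (SE 0.0808) and 0.91 (SE 0.0831), with adjusted p of 9.45e-06, 4.69e-05 and 6.71e-07 by the same test. Irf9 kept more of its LacZ level (60.5%, 62.9% and 53.4%) than Stat2 (43.5%, 53.8% and 43.0%). Like those of Ifih1 and Ddx58, the calls of Stat2 and Irf9 held in each leave-one-out fit, in all 3 comparisons.

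Irf1 (ENSRNOG00000008144), a factor that responds above all to interferon gamma and whose promoter window above holds a GAS core, varied little. LacZ libraries had 31.1, 35.3 and 31.0 CPM, WT libraries 28.1, 22.2 and 25.9, and K815R libraries 26.1, 26.1 and 25.9. The libraries labelled K815Q had 33.8, 26.6 and 26.8 CPM, so replicate 1 of these lay within the LacZ range. Only the WT comparison was called (log2 fold change -0.35, SE 0.0911, adjusted p 0.0265, edgeR quasi-likelihood with Benjamini-Hochberg), and it was lost in 3 of the 6 leave-one-out fits. It did not pass without LacZ replicate 2 (-0.29, adjusted p 0.138 by the same test), WT replicate 2 (-0.26, adjusted p 0.152) or WT replicate 3 (adjusted p 0.0694). In K815R the log2 fold change was -0.32 (95% interval -0.51 to -0.13, adjusted p 0.0698 by the same test), and in the K815Q-labelled libraries it was -0.16 (-0.35 to 0.03, adjusted p 0.291).

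Irf3 (ENSRNOG00000043388) was the one gene of the 9 whose group means lay above LacZ in all 3 comparisons. Its levels were 70.7, 74.8 and 65.8 CPM in LacZ and 76.8, 84.8 and 86.4 in WT. They were 76.2, 76.1 and 75.5 CPM in K815R and 85.4, 74.8 and 73.8 in the K815Q-labelled libraries. All 3 WT and all 3 K815R libraries lay above the LacZ range, and those labelled K815Q overlapped it. WT was higher by 0.23 on the log2 scale (SE 0.0619, adjusted p 0.0273, edgeR quasi-likelihood with Benjamini-Hochberg), which left-out libraries ended in 4 of 6 leave-one-out fits (without LacZ replicate 1 or 3, or WT replicate 2 or 3, adjusted p 0.0669, 0.145, 0.124 and 0.125). K815R and the K815Q-labelled libraries were at 0.11 (95% interval -0.02 to 0.24, adjusted p 0.465 by the same test) and 0.15 (0.02 to 0.28, adjusted p 0.144). Irf3 overlaps Bcl2l12 in the RefSeq gene table, and Bcl2l12 had log2 fold changes of -0.03, 0.04 and 0.04, none of them called.

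**Figure D2:**
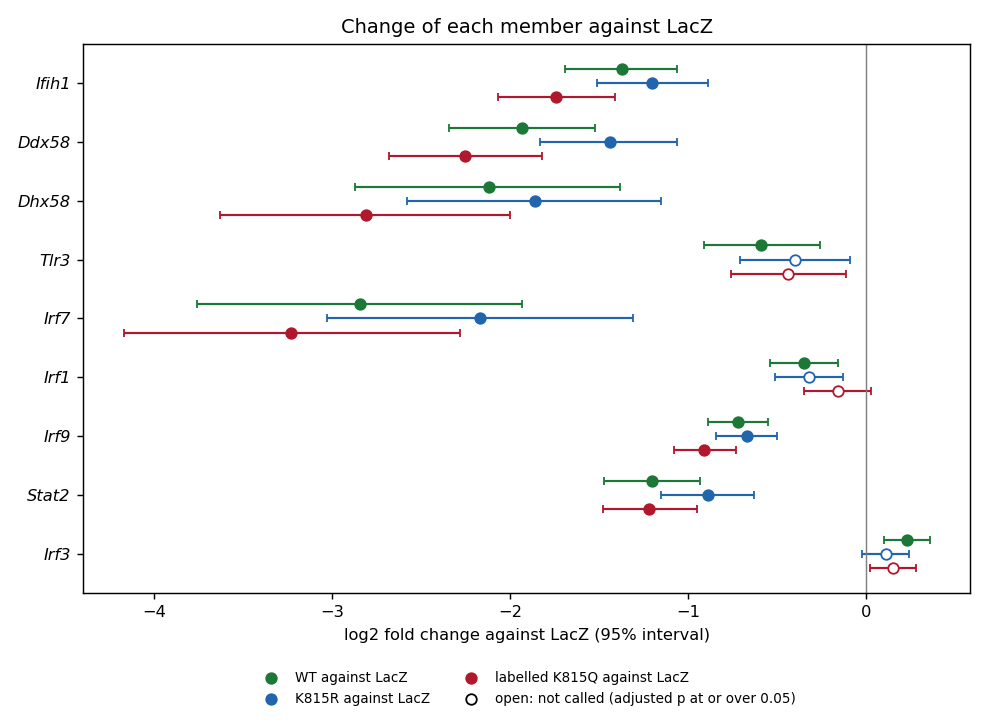
Log2 fold change against LacZ (horizontal axis) of each of the 9 genes in WT, K815R and the K815Q-labelled libraries, with 95% intervals from edgeR's quasi-likelihood fit; filled points were called and open points were not. Irf7, Dhx58 and Ddx58 lie furthest to the left, Irf1 and Tlr3 lie near 0 with open points in 2 comparisons each, and the points of Irf3 lie to the right of 0, from 0.11 to 0.23.

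To set the other genes against the one known as made without interferon, and without relying on library scaling, each gene's log2 CPM was set against that of Irf3 in the same library. For all 8 other genes, each LacZ library then stood above each of the 9 libraries with a KAT6A virus. The same was so for 12.5% of all tested genes, against 3.53% on CPM without this reference. The mean difference between the KAT6A virus libraries and LacZ was -2.87 for Irf7, -2.41 for Dhx58, -2.03 for Ddx58, -1.59 for Ifih1, -1.26 for Stat2, -0.92 for Irf9, -0.63 for Tlr3 and -0.44 for Irf1. Each of these 8 tests gave p = 0.00455, the smallest value that an exact two-sided permutation test over the 220 assignments of 3 LacZ and 9 KAT6A virus libraries allows. The 8 tests share the same LacZ libraries and the same Irf3 values, so they are not 8 independent results. They also take the 9 libraries of 3 different viruses as 1 set. Because Irf3 itself was somewhat higher in WT and lay above the LacZ range in K815R, its own rise enters these differences. With the mean log2 CPM of the 11 cardiomyocyte markers as the reference in place of Irf3, Irf7 stood at -2.78 and Irf1 at -0.35. After Benjamini-Hochberg adjustment over the 8 exact permutation tests p was 0.00519 for 7 of the genes and 0.0136 for Irf1.

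**Figure D3:**
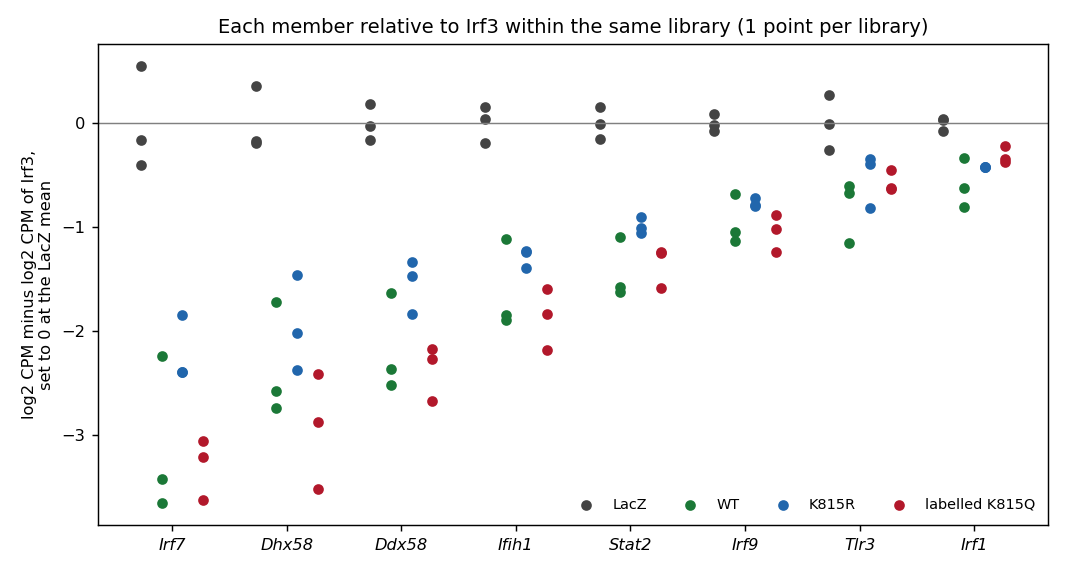
Log2 CPM of each gene minus log2 CPM of Irf3 in the same library, set to 0 at the LacZ mean (vertical axis); each point is 1 of the 12 libraries. For each of the 8 genes the 3 LacZ points lie above all 9 others, with the widest distance for Irf7 (mean difference -2.87) and the narrowest for Irf1 (-0.44).

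The 8 genes did not move by the same amount. The difference in change between 2 genes within the same libraries was tested for all 36 pairs of the 9, a test chosen after the values had been seen. The change differed in 33 pairs (exact permutation p of 0.0409 or less, and 0.0446 or less after Benjamini-Hochberg adjustment over the 36 tests). These include the 8 pairs with Irf3, whose differences are those already given above and do not bear on the 8 genes among themselves. The share among pairs of other genes was not counted. Irf7 changed more than Irf9 by -1.95 on the log2 scale and more than Dhx58 by -0.46. Among the cytoplasmic sensors, Ifih1 kept more of its level than Ddx58 by 0.44 and than Dhx58 by 0.82. Pairs whose difference did not pass were Ddx58 with Dhx58 (0.38, exact permutation p 0.0545), Irf9 with Tlr3 (-0.29, exact permutation p 0.141) and Irf1 with Tlr3 (0.19, exact permutation p 0.273). The order from most to least changed was thus Irf7, Dhx58, Ddx58, Ifih1, Stat2, Irf9, Tlr3 and Irf1, with the neighbours Dhx58 and Ddx58, Irf9 and Tlr3, and Tlr3 and Irf1 not separated.

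Within groups, the genes tended to be high or low in the same libraries. LacZ replicate 2 had the highest value of its group in 8 of the 9 genes, all but Tlr3. WT replicate 1 was highest of its group in 7 genes, and K815R replicate 3 was lowest of its group in 8. The median deviation of the 9 genes from the group mean was 0.24 on the log2 scale in each of the first 2 libraries, but only -0.08 in K815R replicate 3. How often these libraries rank so over all tested genes was not counted, so whether this is particular to these genes was not tested. The spread in LacZ was widest for Irf7 (coefficient of variation 41.8%) and Dhx58 (29.3%), which also changed most between groups, and narrowest for Irf3 (6.40%) and Irf1 (7.47%). Leaving out LacZ replicate 2 left 8 of the genes called lower or higher in WT, 5 in K815R and 6 in the K815Q-labelled libraries.

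The 3 groups with a KAT6A virus were compared with each other. They differ in more than the changed lysine. Kat6a averaged 93.0, 108 and 46.3 CPM in WT, K815R and the K815Q-labelled libraries, and Prkaa2 averaged 519, 87.2 and 1170 CPM. The part of the lysine apart from these differences was not tested. None of the 9 genes was called in any of these comparisons (edgeR quasi-likelihood, Benjamini-Hochberg). Over all genes 1.32% were called higher in K815R than in WT, 0.356% lower in the K815Q-labelled libraries than in WT and 0.213% higher in K815R than in the K815Q-labelled libraries. At an unadjusted p under 0.05, 5 of the 9 were higher in K815R than in the K815Q-labelled libraries (6.20% of all genes), 2 were higher in K815R than in WT (6.92%) and 1 was lower in the K815Q-labelled libraries than in WT (8.01%). By DESeq2 the calls were 1, 0 and 0, the first being Ddx58 (adjusted p 0.00349).

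K815R kept the higher levels in the direct comparison with the K815Q-labelled libraries, without overlap of the libraries, for Ifih1, Ddx58, Dhx58, Irf7, Irf9 and Stat2, and the same separation was seen in 8.28% of all genes. The largest such differences were 1.06 for Irf7 (95% interval 0.03 to 2.08), 0.95 for Dhx58 (-0.01 to 1.90) and 0.81 for Ddx58 (0.34 to 1.28) on the log2 scale, with adjusted p of 0.428, 0.442 and 0.159 (edgeR quasi-likelihood, Benjamini-Hochberg). Ifih1 differed by 0.54 (0.17 to 0.90), Stat2 by 0.32 (0.05 to 0.60) and Irf9 by 0.24 (0.06 to 0.41), with adjusted p of 0.214, 0.355 and 0.272 by the same test. Irf1 ran the other way at -0.16 (-0.35 to 0.03), also without overlap of the libraries, a separation whose share over all genes was not counted in that direction. Tlr3 and Irf3 overlapped and were at 0.03 (-0.30 to 0.37) and -0.04 (-0.17 to 0.09). K815R against WT gave 0.68 for Irf7 (-0.31 to 1.66), 0.49 for Ddx58 (0.04 to 0.94) and 0.31 for Stat2 (0.04 to 0.58), with adjusted p of 0.573, 0.317 and 0.294. Irf9 in the K815Q-labelled libraries against WT was at -0.18 (adjusted p 0.347 by the same test). Against the K815Q-labelled libraries the intervals of Irf7, Dhx58 and Ddx58 reach above 1 on the log2 scale, so a missing call does not show that the forms act alike.

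Other genes of the pathway were read by role, from lists that share no member with the 9. The median log2 fold change of the 8 genes other than Irf3 was -1.29 in WT, -1.05 in K815R and -1.48 in the K815Q-labelled libraries, where the median of all tested genes was 0.01, 0 and 0.01. Of 9 other tested nucleic acid sensors, 2 were lower in each comparison. These were Eif2ak2, which encodes the RNA-activated kinase PKR (-1.0, -0.85 and -1.12), and Adar, which edits double-stranded RNA (-0.55, -0.54 and -0.78). Cgas, the cytoplasmic DNA sensor, stood at only 1.72 ± 0.322 CPM in LacZ (SD, n = 3) and was not called (-0.76, adjusted p 0.085 in WT, edgeR quasi-likelihood with Benjamini-Hochberg). Medians of this list were -0.06, -0.07 and -0.08.

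Adaptors and kinases that connect the sensors to Irf3 came next. Of 15 tested, 1 was lower in each comparison, Trim25, a ubiquitin ligase that activates RIG-I (-0.83, -0.71 and -1.11). Mavs, the mitochondrial adaptor of RIG-I and MDA5, was at 0.09, 0.02 and -0.02, and Tbk1, the kinase of Irf3, at -0.03, -0.04 and -0.04, with no call. Tmem173, which encodes STING, was at 0.20, -0.19 and 0.11, also without a call.

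Receptors and JAK kinases, which receive the interferon signal ahead of Stat2 and Irf9, had 9 tested genes, none of them called in WT or K815R and 1 lower in the K815Q-labelled libraries. That gene was Jak1 (-0.15, -0.08 and -0.18, the last with an adjusted p of 0.0411, edgeR quasi-likelihood with Benjamini-Hochberg). Ifnar1, a chain of the type I interferon receptor, was at -0.03, 0.01 and -0.03 and Tyk2, its kinase, at 0.04, -0.06 and -0.15. The 8 interferon genes of a fixed list that were found by symbol were almost without reads. Of these 8, 4 were at 0 in all 12 libraries (Ifnb1, Ifna2, Ifnl1 and Ifnl3), which allows up to 0.118 to 0.156 CPM per library by counting error alone. Other interferon genes were not looked up, and reads that aligned to more than 1 place are not in these counts. All 8 together had 3 counts in LacZ, 3 with WT, 4 with K815R and 5 in the K815Q-labelled libraries, so no difference in them was detectable at this depth.

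Of 13 tested feedback inhibitors, 2 were lower in each comparison, Usp18, which holds back the interferon receptor (-2.86, -2.06 and -3.18), and the ubiquitin-like Isg15 (-2.83, -1.84 and -3.26). Socs2, a suppressor of cytokine signalling, was higher in WT (0.32) and in the K815Q-labelled libraries (0.35). The effectors, antiviral proteins known as interferon-stimulated, were lower in 23 of 23 tested genes in WT, 22 in K815R and 23 in the K815Q-labelled libraries, with medians of -1.89, -1.66 and -2.31. The exception in K815R was Mx2 (adjusted p 0.0611, edgeR quasi-likelihood with Benjamini-Hochberg). Oas1a, an activator of RNA decay, fell from 8.13 ± 2.58 CPM in LacZ to 0.971 ± 0.565, 1.85 ± 0.721 and 0.722 ± 0.135 (SD, n = 3). Ifit3, which binds foreign RNA with its relatives, fell by 2.85, 2.24 and 3.25 on the log2 scale. Oas2 went from 1.5 ± 0.629 CPM in LacZ to 0.103 ± 0.00146 in the K815Q-labelled libraries (SD, n = 3), which is under the level of 3 counts, and the median with it set at that floor was also -2.31. Genes of the NF-kB arm, the other output of the same sensors, had medians of -0.06, -0.11 and -0.11 over 14 tested. Ccl2 was higher in WT (0.35), Icam1 lower in WT (-0.21), and Vcam1 lower in K815R (-0.53) and in the K815Q-labelled libraries (-0.47). Ccl5 had the largest fold changes of this list (-3, -1.09 and -2.56) but was not called. It stood at only 0.851 ± 0.579 CPM in LacZ (SD, n = 3) and was at 0 in 2 of the 12 libraries.

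**Figure D4:**
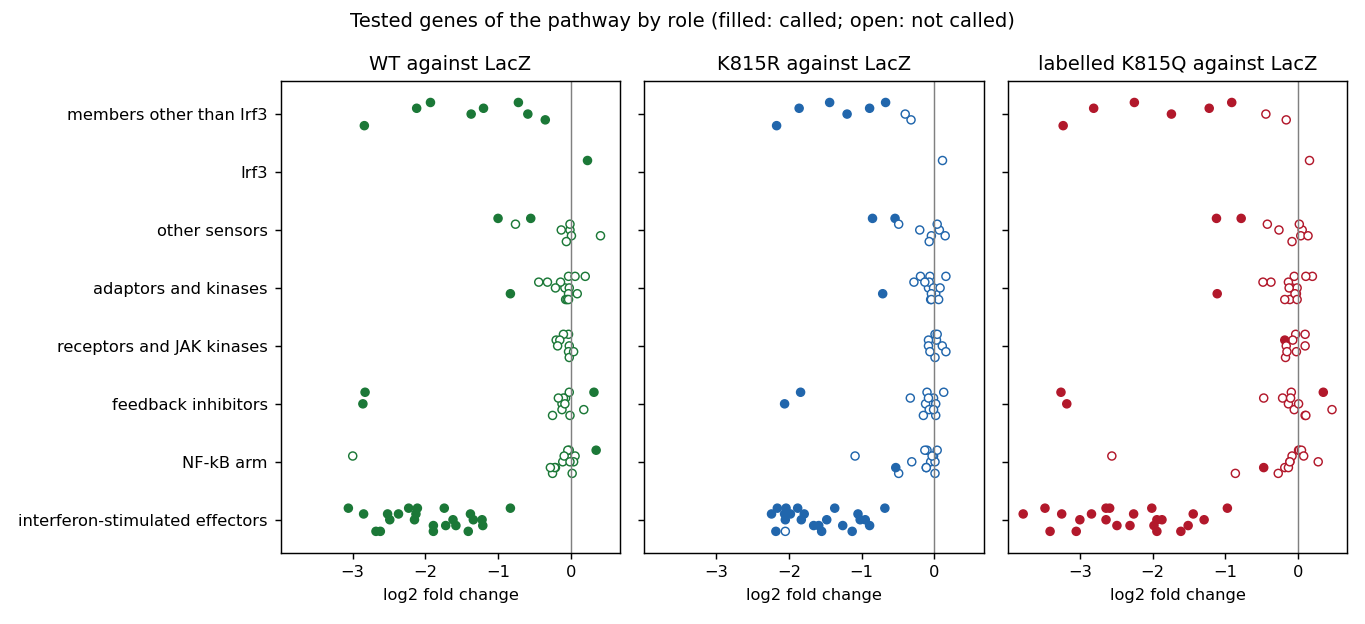
Log2 fold change against LacZ (horizontal axis) of the tested genes by role in WT, K815R and the K815Q-labelled libraries; each point is a gene, filled where called. The 8 genes other than Irf3 and the effectors lie left of 0 in all 3 panels, with medians of -1.29 to -1.05 in WT and K815R for the former, while most adaptors, receptors and NF-kB genes gather at 0.

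Markers of other cell types were summed in each library. The 14 macrophage markers, none at 0, summed to 97.5 to 125 CPM in LacZ, 127 to 137 in WT, 128 to 138 in K815R and 132 to 145 in the K815Q-labelled libraries. Their sum thus ran opposite to the sensors and factors other than Irf3, whose means also rose. Of these, 2 were higher and none lower in WT, 1 higher in K815R, and 2 higher and 1 lower in the K815Q-labelled libraries. The 8 dendritic and lymphoid markers summed to between 3.49 and 5.16 CPM over all 12 libraries, with the B cell marker Ms4a1 at 0. Endothelial markers (8 of 9 in the table) summed to between 145 and 217 CPM, with Cldn5 at 0. The 8 fibroblast markers summed to 8840 to 9480 CPM in LacZ, 8020 to 8580 in WT, 8180 to 8600 in K815R and 8730 to 9390 in the K815Q-labelled libraries. The WT and K815R sums lay below LacZ without overlap, in the same direction as the members that fell. The K815Q-labelled sums overlapped LacZ. Most of each sum was 1 gene, Col1a1, with a LacZ mean of 8260 CPM. It was not called (log2 fold change -0.16 with WT and -0.14 with K815R, adjusted p 0.0908 and 0.212, edgeR quasi-likelihood with Benjamini-Hochberg). Of the 8 markers, 1 was lower and 1 higher in WT, none was called in K815R, and 2 were higher in the K815Q-labelled libraries. Their median log2 fold changes were -0.11, 0 and 0.04, so the sums do not describe the markers as a set. The part of these cell types in the levels above was not tested.

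The genes whose levels followed each member most closely were found by the root mean square difference of log2 CPM over the 12 libraries after centring, among 10260 tested genes with a symbol and a mean of at least 5 CPM. For Irf7 they were RT1-T24-3 (0.151), Usp18 (0.189) and Isg15 (0.198). For Dhx58 they were Uba7 (0.126), Mx1 (0.221) and Rsad2 (0.263), and for Ddx58 RT1-S3 (0.115), Apol9a (0.166) and Bst2 (0.228). Ifih1 was closest to Parp9 (0.0907), Igtp (0.11) and Parp14 (0.138). Stat2 was closest to Lgals3bp (0.0575), Ube2l6 (0.0697) and Ifi27l2b (0.0749), and Irf9 was close to Tapbp (0.0612) and Ifit2 (0.062). RT1 genes belong to a family of close copies, so their counts are uncertain. Irf3 was closest to Gtf2ird2 (0.0507), Tepsin (0.0527) and Ciao3 (0.0581), Irf1 to Palmd (0.0938), Tmem218 (0.095) and Ripk2 (0.104), and Tlr3 to Gnai1 (0.14), Cyld (0.142) and Mme (0.157). Among the 9 themselves the closest pair was Irf9 with Stat2 (0.179), followed by Ifih1 with Stat2 (0.207) and Ddx58 with Ifih1 (0.238). These distances describe the same 12 libraries in 4 groups, which all genes share, and no test was made of them.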

How the data were processed

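RNA of 12 libraries was measured as read counts per gene. The authors deposited 1 table of raw counts, made with Trimmomatic 0.39, HISAT2 2.2.1 and HTSeq 0.6.1 on build Rnor_6.0, per the submitters' processing notes, which also name edgeR; the annotation and strand setting are not given in the sources used here. Of all reads (32513537 to 43264244 per library), 25.6% to 26.9% aligned to more than 1 place, 11.7% to 12.9% lay outside features, 0.461% to 0.50% were ambiguous and 2.69% to 3.06% remained unaligned; these counters stayed out of library sizes and tests. Genes with close copies or overlapping neighbours are therefore counted from part of their reads.

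Groups and replicate numbers came from the sample titles. Replicates differed by more than sampling noise (chi-square per degree of freedom 4.54 to 8.74 over 12 pairs), so no library was taken for a copy of another; this does not show that they were separate cultures. Counts were scaled by TMM and filtered with filterByExpr (minimum count 10, minimum total 15). The test was edgeR's (version 4.0.16, R 4.3.3) robust quasi-likelihood test in 1 model of group means over the 12 libraries, with Benjamini-Hochberg adjustment over 14063 genes and a threshold of 0.05. The common biological coefficient of variation was 0.0581. Log2 CPM used a prior count of 2, and the SE of a fold change was taken from its F statistic. Intervals cover 95%.

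The members and lists were chosen with earlier results of these data known. Named were the 9 members, up to 3 called genes of each list with the largest mean change, Mavs, Tbk1, Tmem173, Cgas, Ifnar1, Ifnb1, Jak1 and Tyk2 whatever their result, the 3 genes most like each member, and Kat6a with Prkaa2 as a check of the labels. Genes outside this rule (Bcl2l12, Mx2, Ccl5, Col1a1, 2 cell type markers at 0 and 3 interferon genes) were named after their values were seen. The list of other IRF and STAT factors and 1 gene close to Irf9 are not reported here. These steps were tested on simulated data for WT against LacZ (13944 genes): 91 of 102 genes changed 2-fold and 95 of 98 changed 4-fold were called, with 8 calls among unchanged genes and 0 in a comparison without change. Alternatives were other scalings, no filter, a stricter filter, DESeq2 1.42.0, the replicate number as a block, fits of only the 6 libraries compared, other references and prior counts, and leaving out each library.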

Additional observations from a re-analysis of the deposited data

How the results depend on the processing

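Of 702 alternative values of single genes, 662 kept direction and side of the threshold, 22 lost the call, 8 gained one and 10 changed sign. Most of the 702 belong to results that were not called in the full fit, so the 22 lost calls come from the smaller part that was called. All 6 calls in the K815Q-labelled libraries against LacZ held under each alternative run. Genes called against LacZ numbered 6 to 8 in WT, 4 to 6 in K815R and 6 in the K815Q-labelled libraries when a library was left out. Between K815R and the K815Q-labelled libraries, 0 genes were called, but 1 without the filter (Ifih1, adjusted p 0.0125), 1 by DESeq2 (Ddx58) and 3 when only their 6 libraries were fitted (Irf7, Stat2 and Ddx58, adjusted p 0.037, 0.025 and 0.0134); the cause was not tested. With only the 6 libraries of a comparison fitted, Irf7 in WT (adjusted p 0.0718), Irf7 in K815R (0.122) and Dhx58 in K815R (0.0894) were not called, and Tlr3 in WT was not called by DESeq2 (0.0597). Irf1 in K815R was called without the filter, by DESeq2 and with only those 6 libraries (adjusted p 0.0016, 0.047 and 0.0175).

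Sign changed only in comparisons between forms that were not called, and leaving out libraries gave these ranges of log2 fold change: for K815R against WT, -0.05 to 0.11 in Irf1, -0.01 to 0.14 in Irf9 and 0.00 to 0.57 in Dhx58; for the K815Q-labelled libraries against WT, -0.61 to 0.11 in Irf7 and -0.09 to 0.11 in Stat2; for K815R against the K815Q-labelled libraries, -0.08 to 0.03 in Irf3 and -0.06 to 0.16 in Tlr3. Over all genes, calls against LacZ ran from 378 (without LacZ replicate 2) to 1018 (no filter) in WT, where the full fit gave 751, from 173 (without K815R replicate 1) to 600 in K815R, where it gave 348, and from 360 (without K815Q replicate 1) to 1528 in the K815Q-labelled libraries, where it gave 1104.

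Taken over all tested genes, libraries with the same replicate number showed no strong pairing, and pairing in a part of the genes was not tested. Deviations from the group means correlated at -0.127 to 0.0921 between libraries numbered 1, -0.0831 to 0.122 between those numbered 2 and -0.0965 to 0.0741 between those numbered 3. With the replicate number as a block, 9 genes were called in WT, 5 in K815R and 6 in the K815Q-labelled libraries; the call not kept was Irf7 in K815R (-2.16, adjusted p 0.0506). Depth limits Tlr3, Cgas, Oas2 and the interferon genes.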
